A study of Mus musculus with 6 samples.

Results

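The genes described here are 40 genes that cells switch on to divide, from the cyclins that start mitosis to the proteins that build the spindle and cut the daughter cells apart. They were taken from a list of symbols, and each was followed through the array probe whose accession maps to it. A probe was found for 39 of the 40, among 18342 named genes on the array, and all 39 were bright enough to be tested. Prc1, a microtubule bundler of the central spindle, had no probe that could be named and has no value below.

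RNA from 6 mouse livers on the BL6 background was measured, each on 1 single-colour array. All 6 samples carried the deletion Fah_del_tm1Mgo, so every liver lacked fumarylacetoacetate hydrolase, which completes the breakdown of tyrosine. Animals with this deletion alone are called Fah here. FCR animals also carried Rag2_del_tm1Fwa and a deletion of the common gamma chain (tm1Wjl); the loss of both genes is known to leave an animal without mature lymphocytes, NK cells included. NTBC, a drug that blocks an earlier step of the pathway and keeps the animals well, was given in drinking water at 7.5 µg/ml as the full dose. There was 1 healthy liver of a Fah animal and 1 normal liver of an FCR animal on continuous NTBC. The 2 Fah tumours and the 2 inflamed FCR livers came from the regimens labelled off and 2xoff/on, 1 array each. The labels give neither ages nor the point in the NTBC schedule at which a liver was collected, and do not say that the arrays of a group are separate animals, so that p-values measure only the spread between these samples. The arrays of continuous NTBC and off lay on slide 1 and those of 2xoff/on on slide 2. The series' design text sets the tumours against FCR_100% and FCR_2xoff/on.

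In background terms, a resting adult liver holds few dividing cells, and most hepatocytes are quiescent; after injury hepatocytes can re-enter the cycle. Cyclin B with its kinase CDK1 drives a cell into mitosis, the spindle checkpoint holds it there until every chromosome is attached, and the anaphase-promoting complex then destroys cyclin B and securin so that the sister chromatids part. The messages of these genes accumulate mainly in G2 phase and mitosis. In resting cells many of them are held down by the DREAM complex, which binds a short element near the transcription start called the CHR, and in G2 they are switched on through B-MYB and FOXM1. NF-Y, which binds CCAAT boxes, is known to act on many of the same promoters.

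The promoters of these genes are shown first, and a link between their sequence and the values in the livers was not tested. RefSeq promoter windows of GRCm38.p6, which reach from 250 bases before to 50 bases after the annotated start, were found by symbol for 33 of the 40 genes. Of these, 31 had 1 window and 2 genes, Ect2 and Prc1, had 2 that overlap. The 120 bases before the start are printed for 8 genes from different steps of mitosis, 5′ to 3′ on the gene's own strand. Capitals mark the CHR letters TTTGAA or their reverse TTCAAA, and the CCAAT box letters CCAAT or their reverse ATTGG. Cyclin B2, Cdk1, Cdc20 and Ube2c stand for entry into and exit from mitosis, Kif11 and Hmmr for the spindle, Ttk for the checkpoint and Top2a for chromosome structure.
Ccnb2, chr9:70421555-70421674, minus strand: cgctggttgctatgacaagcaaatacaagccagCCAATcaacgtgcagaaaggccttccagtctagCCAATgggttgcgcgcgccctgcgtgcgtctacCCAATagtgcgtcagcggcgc
Cdk1, chr10:69352913-69353032, minus strand: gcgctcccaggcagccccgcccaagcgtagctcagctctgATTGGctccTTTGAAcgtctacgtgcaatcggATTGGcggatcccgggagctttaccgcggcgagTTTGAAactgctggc
Cdc20, chr4:118437344-118437463, minus strand: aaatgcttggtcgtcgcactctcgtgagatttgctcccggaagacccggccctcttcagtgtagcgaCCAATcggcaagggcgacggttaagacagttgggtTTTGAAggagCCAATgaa
Ube2c, chr2:164769809-164769928, plus strand: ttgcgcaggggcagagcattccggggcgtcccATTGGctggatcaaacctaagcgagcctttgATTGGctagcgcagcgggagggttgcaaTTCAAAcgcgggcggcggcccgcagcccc
Kif11, chr19:37376262-37376381, plus strand: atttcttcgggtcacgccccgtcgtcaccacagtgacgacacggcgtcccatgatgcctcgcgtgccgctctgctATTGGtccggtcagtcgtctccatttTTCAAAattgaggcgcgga
Top2a, chr11:99024190-99024309, minus strand: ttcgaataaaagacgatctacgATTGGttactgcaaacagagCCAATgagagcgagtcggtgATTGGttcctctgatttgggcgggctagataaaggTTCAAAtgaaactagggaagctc
Hmmr, chr11:40733438-40733557, minus strand: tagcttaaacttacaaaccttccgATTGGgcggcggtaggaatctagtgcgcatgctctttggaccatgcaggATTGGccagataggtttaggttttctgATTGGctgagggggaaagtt
Ttk, chr9:83834569-83834688, plus strand: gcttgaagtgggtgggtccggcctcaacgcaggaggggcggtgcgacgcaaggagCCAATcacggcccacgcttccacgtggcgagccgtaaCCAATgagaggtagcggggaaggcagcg

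In the printed stretches Ccnb2 had 3 CCAAT boxes whose starts lay 33 and 33 bases apart, and Cdk1 had 2 of them 32 bases apart and 2 CHR matches. Over the windows with at least 2 CCAAT matches the smallest spacing ranged from 3 bases in Ube2c, 20 in Top2a, 22 in Mki67, 23 in Cenpa and 26 in Bub1, through 32 in Ccnb1 and Aurka and 37 in Ttk, to 45 in Cdc20, 61 in Cenpf and 147 in Kif4. The CHR matches of Ccnb2, Hmmr and Ttk nearest to the start began 4, 8 and 7 bases after it and are not printed. Over both strands, CHR letters were found in 26 of the 35 windows (74.3%), against 17.9% of all 32851 promoter windows of that length in the table. CCAAT letters stood in 26 of 35 windows (74.3%) against 37.4% of all windows, and 18 windows (51.4%) had them at least 2 times against 11.7%. Both motifs were present in 23 windows (65.7%) against 6.95% of all. Of 33 CHR matches in these windows, 24 lay within 50 bases of the start. Ect2 and Prc1 enter all these counts with both of their overlapping windows, so shared sites are counted in each. In 1 place a CHR match shared bases with a CCAAT match, and in Ube2c 1 pair of CCAAT matches overlapped. Neither set of letters was found in the windows of 6 genes, Nuf2, Nusap1, Melk, Mad2l1, Pttg1 and Birc5.

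**Figure D1:**
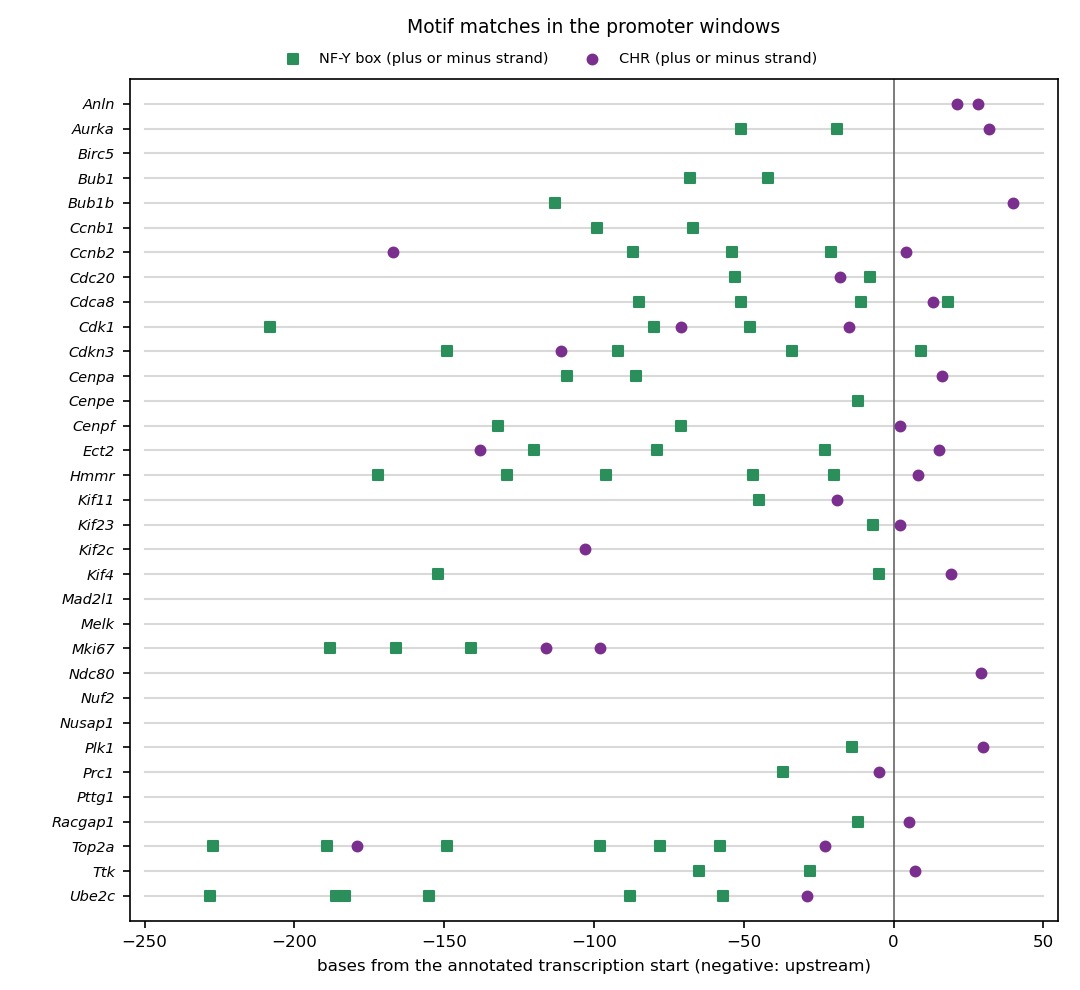
Position of the motif matches in the promoter window of each gene, in bases from the annotated transcription start; squares are CCAAT boxes, which NF-Y binds, and circles are CHR letters, on either strand. For Ect2 and Prc1 the window with the lower coordinate is drawn. Most circles lie close to the start (24 of 33 matches within 50 bases over all windows, both windows of Ect2 and Prc1 included), and 6 genes have no match.

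Levels are on the log2 scale, relative to the 75th percentile of the processed signals of the same array, so that 0 is a gene as bright as that percentile, and a difference of 1 is a doubling. Levels of different genes come from different probes and are not set against each other. Where a gene has 2 values in a group, the first is the off array and the second the 2xoff/on array. Hepatocyte markers were well above background on all 6 arrays (6 of 6 measured genes). Il2rg, the deleted common gamma chain, passed the scanner software's test of signal over background on the 3 Fah arrays alone, while Rag2 passed it on no array and checks nothing. Between 60.5% and 74.5% of spots were well above background. The array's 75th percentile was 363 to 374 in healthy, normal and FCR off liver and 722 to 890 in the other 3, so the brightness of the arrays differed along with the groups. Along the second principal component of all genes (21.8% of the variance) the FCR off array lay at 104 and the other 5 between -53.0 and 7.96. The main counts and medians that rest on that array are given with and without it.

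Mitotic genes were low in both livers on continuous NTBC, highest in the Fah tumours and in between in the inflamed FCR livers. The median level of the 39 genes was -3.69 in the healthy and -3.45 in the normal liver. It was 0.70 and 1.17 in the tumours, and -0.93 and -0.09 in the inflamed livers. Over all 15382 genes tested the median level stayed between -0.34 and -0.16 on the 6 arrays. In healthy liver 31 of the 39 genes and in normal liver 33 were well above background, against 39 in both tumours and 38 and 39 in the inflamed livers. All 4 tumour and inflamed arrays lay above both continuous NTBC arrays for 37 of the 39 genes, as they did for 20.1% of all genes tested. The exceptions were Bub1 and Cdc25c. The 2xoff/on tumour held the highest value of 31 genes, the off tumour that of 7 and the 2xoff/on inflamed liver that of 1, Bub1. In whole tissue a change in the number of dividing cells and a change in RNA per cell cannot be told apart.

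**Figure D2:**
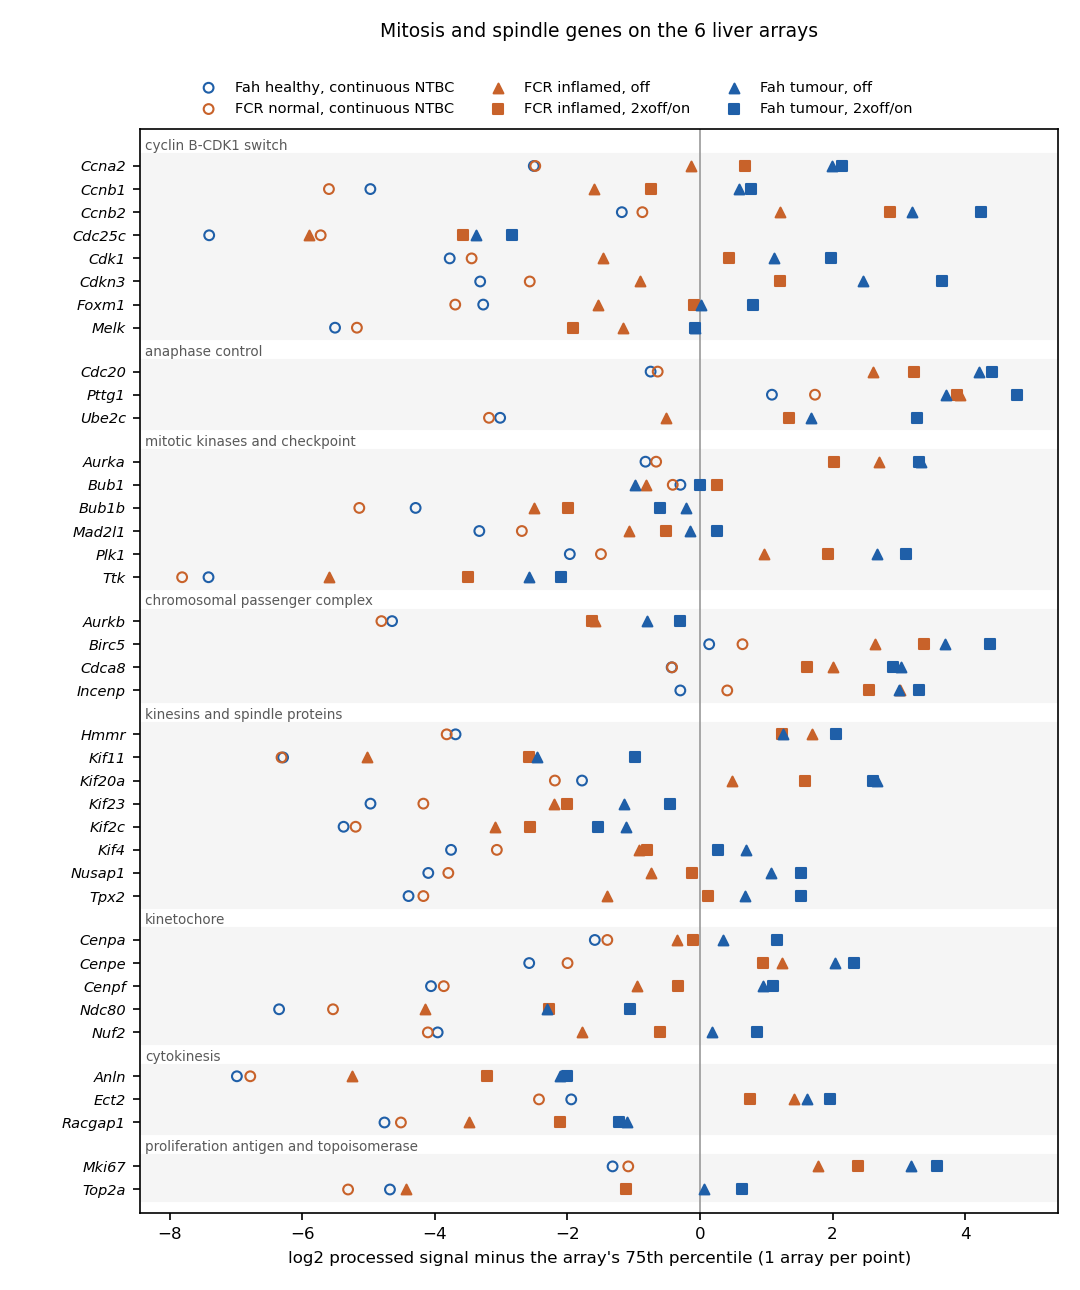
Level of each of the 39 genes on each of the 6 arrays, on the log2 scale relative to the 75th percentile of that array, grouped by role; blue is Fah, orange FCR, open circles continuous NTBC, triangles off and squares 2xoff/on. In most rows open circles sit at the left, orange filled symbols in the middle and blue filled symbols at the right; blue and orange filled symbols overlap for Pttg1, Bub1, Incenp, Hmmr and Ndc80, and for Bub1 and Cdc25c the filled symbols do not all lie right of the circles.

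Each genotype was compared with its own liver on continuous NTBC in 1 limma model of the 4 group means over all 6 arrays. Fah tumours were compared with healthy Fah liver (n = 2 against 1), and inflamed with normal FCR liver (n = 2 against 1). In such a fit a lone array is assumed to vary like the others. Adjusted p-values here and below are Benjamini-Hochberg values over all genes tested, and a gene is said to rise where its value is under 0.05. Differences are given ± their standard error. In the tumours 35 of the 39 genes rose and none fell, where 3.93% of all genes tested rose and 1.13% fell. The median difference was 4.57, a 23.7-fold change, against a median of -0.08 over all genes. In inflamed FCR liver 9 of 39 rose and none fell, where 1.55% of all genes rose and 0.202% fell; the median was 2.90, or 7.46-fold, against 0.04 over all genes. All 9 also rose in the Fah tumours. Genes that were not well above background in the continuous NTBC liver have only a lower bound, and with 8 such genes at their bound the Fah median was 4.17, and with 6 the FCR median 2.88. An adjusted p printed beside a bound is that of the limma difference, and the bound itself was not tested. Counted without the FCR off array the 9 became 25, with a median of 3.27, and without the FCR 2xoff/on array 22, with a median of 2.32. In those fits 393 and 1143 of all genes rose. The counts changed with the values used: with the authors' values 21 genes rose in Fah and 0 in FCR, and with 1 common floor under all arrays 0 rose in either, where 0 of all genes passed.

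For the switch that starts mitosis, the mean of each of its 8 genes was higher in tumours and in inflamed livers than on continuous NTBC. Ccnb1 encodes cyclin B1, which activates CDK1 at the entry into mitosis. Its level was -4.97 in healthy Fah liver, 0.59 and 0.77 in the tumours, -5.60 in normal FCR liver and -1.60 and -0.74 in the inflamed livers. Both groups lay clear of their continuous NTBC liver: it rose by 5.65 ± 0.71 (adjusted p = 0.00578) in Fah, and in FCR, where normal liver was not well above background, it rose at least 20.2-fold (adjusted p = 0.021). Ccnb2, the second B-type cyclin, was at 3.20 and 4.24 in the tumours and 1.21 and 2.87 in the inflamed livers, against -1.18 in healthy Fah and -0.87 in normal FCR liver. It rose by 4.90 ± 0.81 (adjusted p = 0.0142) in Fah, and the FCR difference was 2.91 ± 0.81 (adjusted p = 0.126). Ccna2 encodes cyclin A2, which acts from S phase into early mitosis. It went from -2.51 in healthy Fah liver to 1.99 and 2.14 in the tumours, and from -2.49 in normal FCR liver to -0.13 and 0.68 in the inflamed livers, and rose in Fah by 4.57 ± 0.65 (adjusted p = 0.00856); the FCR difference was 2.76 ± 0.65 (adjusted p = 0.0795).

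Cdk1, the kinase itself, read -3.78 in healthy Fah liver, 1.12 and 1.98 in the tumours, -3.45 in normal FCR liver and -1.47 and 0.44 in the inflamed livers. The off inflamed liver stood 1.91 below the 2xoff/on inflamed liver. Cdk1 rose by 5.33 ± 0.87 (adjusted p = 0.0139) in Fah and differed by 2.93 ± 0.87 (adjusted p = 0.154) in FCR. Cdkn3, a phosphatase that removes an activating phosphate from CDKs, had the largest Fah difference of the 39 genes. Its levels were 2.46 and 3.66 in the tumours and -0.90 and 1.21 in the inflamed livers, against -3.32 in healthy Fah and -2.57 in normal FCR liver. The Fah rise was 6.38 ± 0.93 (adjusted p = 0.00956) and the FCR difference 2.72 ± 0.93 (adjusted p = 0.214). Cdc25c, the phosphatase that activates CDK1, was dim: it read -7.41 in healthy Fah liver, -3.38 and -2.84 in the tumours, -5.72 in normal FCR liver and -5.90 and -3.58 in the inflamed livers, and was not well above background in healthy, normal and FCR off liver. On this probe the tumours were at least 4.02-fold higher than healthy liver, and the limma difference did not pass (adjusted p = 0.0569). The FCR figure made in the same way was 1.70-fold (adjusted p = 0.801). It is no strict bound, since the off inflamed liver was dim too. A second probe was well above background in healthy Fah liver and both tumours. It read -4.52 in healthy liver and -4.25 and -3.67 in the tumours, a Fah difference of 0.56. The 2 probes thus disagreed on the size of the Fah difference.

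Foxm1, a transcription factor that drives G2 and M phase genes, went from -3.27 in healthy Fah liver to 0.01 and 0.80 in the tumours, and from -3.69 in normal FCR liver to -1.53 and -0.09 in the inflamed livers. It rose by 3.67 ± 0.80 (adjusted p = 0.0348) in Fah; the FCR difference was 2.88 ± 0.80 (adjusted p = 0.125). Melk, a kinase expressed in dividing and progenitor cells, was at -0.07 and -0.07 in the tumours and -1.16 and -1.91 in the inflamed livers, against -5.51 in healthy Fah and -5.18 in normal FCR liver. Here the off inflamed liver was above the 2xoff/on one. Melk rose at least 33.1-fold in Fah (adjusted p = 0.00724), where healthy liver was not well above background, and by 3.64 ± 0.71 (adjusted p = 0.0434) in FCR. Together 7 of the 8 genes of the switch rose in the tumours (median difference 5.11) and 2 of 8 in inflamed FCR liver (median 2.90).

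The 3 genes of anaphase control rose in the tumours without exception. Cdc20 activates the anaphase-promoting complex. Its level was -0.75 in healthy Fah liver, 4.21 and 4.40 in the tumours, -0.64 in normal FCR liver and 2.62 and 3.22 in the inflamed livers, and the 2 arrays of a group were at most 0.60 apart. It rose by 5.05 ± 0.59 (adjusted p = 0.00466) in Fah, the smallest adjusted p of the 39, and by 3.56 ± 0.59 (adjusted p = 0.0248) in FCR. Ube2c, the ubiquitin-conjugating enzyme of that complex, went from -3.02 in healthy Fah liver to 1.67 and 3.28 in the tumours, and from -3.18 in normal FCR liver to -0.51 and 1.35 in the inflamed livers. The 2xoff/on array was the higher one in both genotypes, by 1.61 and 1.85. Ube2c rose by 5.49 ± 0.94 (adjusted p = 0.0155) in Fah, and the FCR difference of 3.60 ± 0.94 (adjusted p = 0.106) did not pass. Pttg1 is securin, the inhibitor of separase that the complex destroys. It was at 3.72 and 4.78 in the tumours and 3.92 and 3.88 in the inflamed livers, against 1.09 in healthy Fah and 1.74 in normal FCR liver. The off tumour lay below both inflamed livers, so the groups overlapped. The Fah rise was 3.16 ± 0.63 (adjusted p = 0.0258) and the FCR difference 2.17 ± 0.63 (adjusted p = 0.144).

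Among 6 mitotic kinases and checkpoint proteins, 5 rose in the tumours (median difference of the 6 genes 4.01) and Aurka alone rose in inflamed FCR liver. Aurka, Aurora kinase A of the spindle poles, read -0.82 in healthy Fah liver, 3.33 and 3.30 in the tumours, -0.66 in normal FCR liver and 2.71 and 2.02 in the inflamed livers. It rose by 4.14 ± 0.60 (adjusted p = 0.00961) in Fah and by 3.03 ± 0.60 (adjusted p = 0.0462) in FCR. Plk1, Polo-like kinase 1, which acts at centrosomes, kinetochores and the cleavage site, was at 2.67 and 3.12 in the tumours and 0.96 and 1.94 in the inflamed livers, against -1.96 in healthy Fah and -1.49 in normal FCR liver. It rose by 4.86 ± 0.66 (adjusted p = 0.0078) in Fah, against an FCR difference of 2.94 ± 0.66 (adjusted p = 0.0688). Ttk, or Mps1, the kinase that starts checkpoint signalling at unattached kinetochores, was not well above background in either continuous NTBC liver. Its levels were -7.42 in healthy Fah liver, -2.57 and -2.10 in the tumours, -7.82 in normal FCR liver and -5.59 and -3.49 in the inflamed livers. The rise in Fah was at least 6.88-fold (adjusted p = 0.0282). The FCR bound was 1.95-fold, and the limma difference there did not pass (adjusted p = 0.18). Bub1b, or BubR1, a part of the checkpoint complex that restrains CDC20, went from -4.29 in healthy Fah liver to -0.22 and -0.60 in the tumours, and from -5.14 in normal FCR liver to -2.50 and -1.99 in the inflamed livers. It rose by 3.88 ± 0.71 (adjusted p = 0.0198) in Fah and differed by 2.90 ± 0.71 (adjusted p = 0.0873) in FCR. Mad2l1, Mad2 of the same complex, was at -0.15 and 0.26 in the tumours and -1.07 and -0.51 in the inflamed livers, against -3.33 in healthy Fah and -2.69 in normal FCR liver. Its Fah rise was 3.39 ± 0.67 (adjusted p = 0.0251) and its FCR difference 1.90 ± 0.67 (adjusted p = 0.231).

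Bub1, a checkpoint kinase, gave different answers on its 2 probes. The probe with the higher mean, used for the gene here, was designed on NM_001113179 and read -0.30 in healthy Fah liver, -0.98 and 0.01 in the tumours, -0.41 in normal FCR liver and -0.81 and 0.26 in the inflamed livers. It did not separate the groups (Fah -0.19 ± 0.74 (adjusted p = 0.944), FCR 0.13 ± 0.74 (adjusted p = 0.974)). The other probe, designed on NM_009772, read -5.82 in healthy Fah liver, -0.41 and -0.07 in the tumours, -5.72 in normal FCR liver and -1.86 and -1.84 in the inflamed livers, the pattern of the other checkpoint genes. This second probe was not well above background on continuous NTBC, and when tested on its own over all probes it passed in Fah (adjusted p = 0.0241) and not in FCR (adjusted p = 0.0991). Among the 17 genes with several probes, the median range of the probes' Fah differences was 0.74, some of them taken from dim probes. That median left out 2 probes that were well above background on fewer than 2 arrays. Cdk1 and Kif11 thus entered it with a single probe and no range, so it understates the disagreement. Their left-out probes differed by 1.64 and 0.16 in Fah, against 5.33 and 4.57 on the probes used. The largest range was 5.77, that of Bub1.

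The chromosomal passenger complex corrects faulty attachments and later guides cytokinesis, and all 4 of its subunits rose in the tumours (median 3.68) while none passed in inflamed FCR liver (median 2.37). Aurkb, its kinase, read -4.65 in healthy Fah liver, -0.81 and -0.31 in the tumours, -4.81 in normal FCR liver and -1.58 and -1.63 in the inflamed livers, rising by 4.09 ± 0.69 (adjusted p = 0.0153) in Fah. The FCR difference was 3.20 ± 0.69 (adjusted p = 0.0609). Birc5, or survivin, which brings the complex to centromeres, was at 3.70 and 4.38 in the tumours and 2.64 and 3.39 in the inflamed livers, against 0.14 in healthy Fah and 0.64 in normal FCR liver. It rose by 3.90 ± 0.63 (adjusted p = 0.0132) in Fah, and differed by 2.37 ± 0.63 (adjusted p = 0.112) in FCR. Cdca8, or borealin, went from -0.43 in healthy Fah liver to 3.03 and 2.92 in the tumours, and from -0.42 in normal FCR liver to 2.00 and 1.61 in the inflamed livers; the Fah rise was 3.40 ± 0.59 (adjusted p = 0.016) and the FCR difference 2.23 ± 0.59 (adjusted p = 0.109). Incenp, the scaffold that binds and activates the kinase, read -0.30 in healthy Fah liver, 3.01 and 3.31 in the tumours, 0.41 in normal FCR liver and 3.03 and 2.55 in the inflamed livers. In the off pair the difference of tumour from inflamed liver was -0.02. Incenp rose by 3.45 ± 0.59 (adjusted p = 0.0155) in Fah, and in FCR the difference was 2.37 ± 0.59 (adjusted p = 0.0915).

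Of 8 measured kinesins and spindle proteins, 7 rose in the tumours (median of the 8 genes 4.50), and Hmmr and Nusap1 rose in inflamed FCR liver as well (median 2.87). Hmmr, a microtubule-binding protein of the spindle poles, read -3.69 in healthy Fah liver, 1.25 and 2.05 in the tumours, -3.82 in normal FCR liver and 1.69 and 1.23 in the inflamed livers. The off inflamed liver lay above the off tumour. Hmmr rose by 5.34 ± 0.66 (adjusted p = 0.00565) in Fah and by 5.28 ± 0.66 (adjusted p = 0.00892) in FCR, the largest FCR difference of the 39. Nusap1, which bundles spindle microtubules around chromosomes, was at 1.07 and 1.52 in the tumours and -0.75 and -0.12 in the inflamed livers, against -4.10 in healthy Fah and -3.80 in normal FCR liver. Its rises were 5.40 ± 0.67 (adjusted p = 0.00565) and 3.36 ± 0.67 (adjusted p = 0.0458) in Fah and FCR. Tpx2, which activates Aurora A and helps to nucleate spindle microtubules, went from -4.40 in healthy Fah liver to 0.68 and 1.52 in the tumours, and from -4.17 in normal FCR liver to -1.41 and 0.12 in the inflamed livers. It rose by 5.50 ± 0.82 (adjusted p = 0.00988) in Fah, against 3.53 ± 0.82 (adjusted p = 0.0747) in FCR. Kif20a, a kinesin of the central spindle, read -1.78 in healthy Fah liver, 2.67 and 2.61 in the tumours, -2.19 in normal FCR liver and 0.49 and 1.59 in the inflamed livers. The Fah rise was 4.42 ± 0.67 (adjusted p = 0.0111) and the FCR difference 3.23 ± 0.67 (adjusted p = 0.0548).

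Kif11, or Eg5, the motor that pushes the spindle poles apart, was not well above background in either continuous NTBC liver. Its level went from -6.29 in healthy Fah liver to -2.46 and -0.98 in the tumours, and from -6.32 in normal FCR liver to -5.02 and -2.58 in the inflamed livers. The off inflamed liver was 2.44 below the 2xoff/on one. The tumours were at least 10.5-fold above healthy liver (adjusted p = 0.0545) and the inflamed livers at least 3.27-fold above normal liver (adjusted p = 0.371). Neither limma difference passed. Kif2c, or MCAK, which takes microtubules apart at kinetochores, was at -1.12 and -1.54 in the tumours and -3.09 and -2.57 in the inflamed livers, against -5.38 in healthy Fah and -5.20 in normal FCR liver. It rose at least 13.8-fold in Fah (adjusted p = 0.0199), and the FCR difference was 2.37 ± 0.74 (adjusted p = 0.176). Kif4, a motor on chromosome arms, read -3.76 in healthy Fah liver, 0.70 and 0.28 in the tumours, -3.07 in normal FCR liver and -0.93 and -0.80 in the inflamed livers. It rose by 4.24 ± 0.65 (adjusted p = 0.0114) in Fah and differed by 2.20 ± 0.65 (adjusted p = 0.152) in FCR. Kif23, the kinesin of the centralspindlin complex, was at -1.15 and -0.45 in the tumours and -2.20 and -2.01 in the inflamed livers, against -4.97 in healthy Fah and -4.17 in normal FCR liver. Kif23 rose in Fah (adjusted p = 0.016), and its bound of 18-fold is the estimate itself. Healthy liver was not well above background, yet read above the lowest signal that was on that array (-5.12). The FCR difference was 2.07 ± 0.72 (adjusted p = 0.223).

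Kinetochore genes, which attach chromosomes to the spindle, rose in the tumours in 4 of 5 cases (median of the 5 genes 4.68), and Cenpe rose in inflamed FCR liver. Cenpe, the kinesin that carries chromosomes towards the spindle equator, read -2.58 in healthy Fah liver, 2.04 and 2.33 in the tumours, -2.00 in normal FCR liver and 1.24 and 0.95 in the inflamed livers. Its rises were 4.76 ± 0.61 (adjusted p = 0.00611) in Fah and 3.09 ± 0.61 (adjusted p = 0.0434) in FCR. Cenpf, a large protein of the outer kinetochore, went from -4.06 in healthy Fah liver to 0.95 and 1.10 in the tumours, and from -3.87 in normal FCR liver to -0.95 and -0.33 in the inflamed livers. It rose by 5.09 ± 0.66 (adjusted p = 0.007) in Fah, and the FCR difference of 3.23 ± 0.66 (adjusted p = 0.0516) fell just short. Ndc80 and Nuf2 are partners in the complex that grips microtubules. Ndc80 was at -2.30 and -1.05 in the tumours and -4.15 and -2.28 in the inflamed livers, against -6.35 in healthy Fah and -5.54 in normal FCR liver, not well above background in both continuous NTBC livers. It rose at least 10.9-fold in Fah (adjusted p = 0.0326); the FCR bound was 4.90-fold (adjusted p = 0.336). Nuf2 read -3.96 in healthy Fah liver, 0.19 and 0.86 in the tumours, -4.11 in normal FCR liver and -1.79 and -0.60 in the inflamed livers, rising by 4.48 ± 0.76 (adjusted p = 0.0154) in Fah; the FCR difference was 2.91 ± 0.76 (adjusted p = 0.107). Cenpa, the histone H3 variant that marks centromeres, had the smallest Fah difference apart from Bub1. It was at 0.35 and 1.17 in the tumours and -0.34 and -0.11 in the inflamed livers, against -1.59 in healthy Fah and -1.40 in normal FCR liver, and neither difference passed (Fah 2.35 ± 0.66 (adjusted p = 0.0816), FCR 1.17 ± 0.66 (adjusted p = 0.499)).

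The 3 cytokinesis genes rose in the tumours (median 3.73). Ect2, the exchange factor that activates RhoA at the cleavage site, read -1.94 in healthy Fah liver, 1.62 and 1.97 in the tumours, -2.43 in normal FCR liver and 1.42 and 0.75 in the inflamed livers. It rose by 3.73 ± 0.64 (adjusted p = 0.0155) in Fah and by 3.52 ± 0.64 (adjusted p = 0.0335) in FCR. Racgap1, the partner of Kif23 in centralspindlin, was at -1.11 and -1.22 in the tumours and -3.49 and -2.11 in the inflamed livers, against -4.76 in healthy Fah and -4.51 in normal FCR liver. It rose by 3.60 ± 0.81 (adjusted p = 0.0404) in Fah, and the FCR difference was 1.71 ± 0.81 (adjusted p = 0.402). Anln, or anillin, the scaffold of the contractile ring, went from -6.99 in healthy Fah liver to -2.11 and -2.00 in the tumours, and from -6.79 in normal FCR liver to -5.26 and -3.22 in the inflamed livers. Continuous NTBC livers were not well above background; the Fah rise was at least 8.34-fold (adjusted p = 0.0264) and the FCR bound 2.41-fold (adjusted p = 0.282).

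Mki67, the Ki-67 antigen used to count cycling cells, read -1.32 in healthy Fah liver, 3.18 and 3.58 in the tumours, -1.08 in normal FCR liver and 1.77 and 2.38 in the inflamed livers. The order of the arrays was that of the whole set. Mki67 rose by 4.70 ± 0.61 (adjusted p = 0.007) in Fah and by 3.16 ± 0.61 (adjusted p = 0.0421) in FCR. A second Mki67 probe, well above background on all 6 arrays, read -3.77 in healthy Fah liver and 1.03 and 1.69 in the tumours. It read -3.23 in normal FCR liver and -2.98 and 0.48 in the inflamed livers, so the off inflamed liver stood close to normal liver there. Its differences were 5.13 in Fah and 1.98 in FCR. Top2a, the topoisomerase that untangles sister chromatids, was at 0.06 and 0.63 in the tumours and -4.44 and -1.12 in the inflamed livers, against -4.68 in healthy Fah and -5.31 in normal FCR liver. In the off inflamed liver it stood close to the continuous NTBC livers and 3.32 below the 2xoff/on inflamed liver. The Fah rise was 5.02 ± 1.20 (adjusted p = 0.0486), near the threshold, and the FCR difference was 2.53 ± 1.20 (adjusted p = 0.401).

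**Figure D3:**
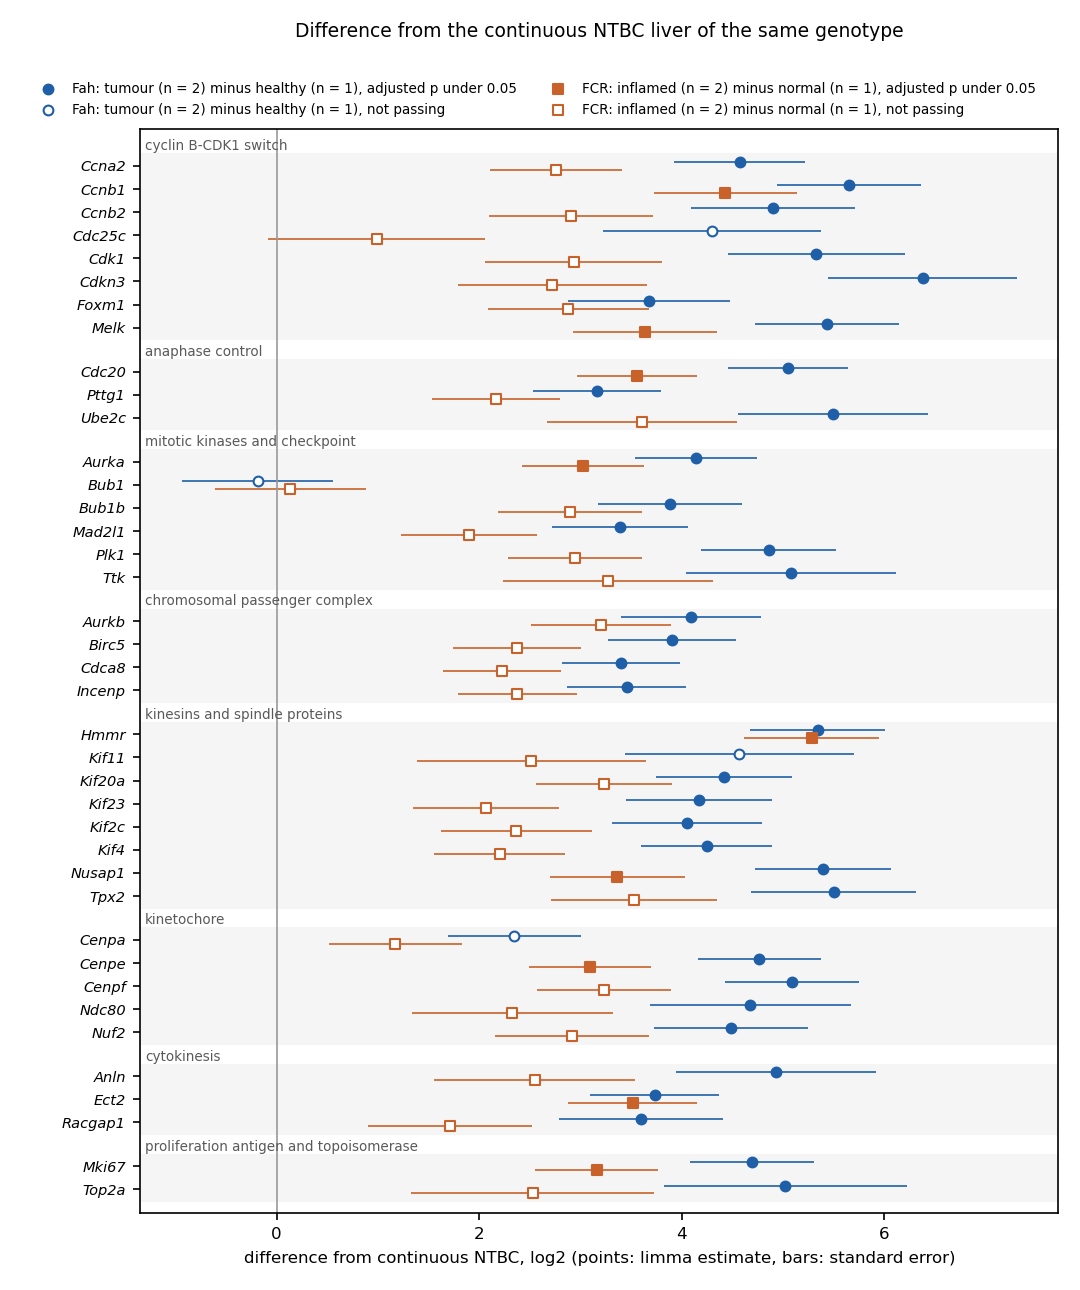
Difference of each gene from the continuous NTBC liver of its genotype, log2, as the limma estimate with its standard error as bar; blue circles are Fah tumours minus healthy liver, orange squares inflamed minus normal FCR liver, and filled symbols have an adjusted p under 0.05. Blue is to the right of orange in 38 rows; 35 blue and 9 orange symbols are filled.

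The Fah difference was the larger one for 38 of the 39 genes (46.8% of all genes), Bub1 being the exception, by a median of 1.68 (over all genes -0.06). As a test of that difference itself, the interaction of genotype and withdrawal passed for 0 of the 39 genes by limma, and for 0% of all genes tested. At an unadjusted p under 0.05 it was met by 1 gene (1.02% of all genes), Cdkn3, with 3.65 ± 1.31 (adjusted p = 1). No single gene was thus shown to respond differently in the 2 genotypes. Without the FCR off array the median was 1.21, and 0 of the 39 passed.

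The tumours were next set against the inflamed FCR livers directly, at the same pair of regimens (n = 2 and 2). The genes were higher in the tumours in 38 of 39 cases (42.4% of all genes), with a median difference of 1.50, or 2.83-fold, against -0.13 over all genes tested. None passed, where 0.0715% of all genes tested passed as higher. At an unadjusted p under 0.05, 23 of 39 were higher, against 4.19% of all genes. A difference above 1 was seen in 31 of 39 (9.67% of all genes). For 34 of 39 both tumours lay above both inflamed livers, compared with 16% of all genes. The 5 genes whose groups overlapped were Pttg1, Bub1, Incenp, Hmmr and Ndc80.

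The widest gap was that of Top2a, 3.13 ± 0.98 (adjusted p = 0.324), with 0.34 ± 0.41 (SD, n = 2) in the tumours and -2.78 ± 2.35 (SD, n = 2) in the inflamed livers. Cdkn3 followed with 2.91 ± 0.76 (adjusted p = 0.231), and had the smallest adjusted p. Ttk differed by 2.21 ± 0.85 (adjusted p = 0.457), Anln by 2.18 ± 0.81 (adjusted p = 0.435), Cdk1 by 2.06 ± 0.71 (adjusted p = 0.387) and Ube2c by 2.05 ± 0.76 (adjusted p = 0.437). The least apart were Bub1 with -0.21 ± 0.61 (adjusted p = 0.946), Hmmr with 0.19 ± 0.54 (adjusted p = 0.943), Pttg1 with 0.35 ± 0.51 (adjusted p = 0.895), Incenp with 0.37 ± 0.48 (adjusted p = 0.874) and Ect2 with 0.70 ± 0.52 (adjusted p = 0.773). By role the median difference ran from 1.04 in the chromosomal passenger complex and 1.20 in the kinases and checkpoint, through 1.38 in anaphase control, 1.54 at the kinetochore, 1.55 in the kinesins and spindle proteins and 1.64 in cytokinesis, to 1.74 in the cyclin B-CDK1 switch and 2.21 for Mki67 and Top2a. With slide as a block in the same model 16 of the 39 passed, in a fit in which 524 of all genes passed as higher. Without the FCR 2xoff/on array, so that the FCR off array stood alone, 12 passed with a median of 1.94, in a fit in which 368 of all genes passed as higher; without the FCR off array none passed and the median was 1.08.

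Within each regimen the Fah array was compared with the FCR array on the same slide, 1 pair each and so without a test. On continuous NTBC the Fah liver was the higher one for 13 of the 39 genes (43% of all genes), with a median Fah minus FCR difference of -0.19 over all 39. Of these, 30 genes were well above background in both livers, and their differences ran from -0.75 to 0.85 with the same median; 5 genes, Cdc25c, Ttk, Kif11, Ndc80 and Anln, were well above background in neither and have no order there. In the off pair the median was 1.81 (range -0.43 to 4.50) and 35 of 39 were higher in Fah (39.4% of all genes). In the 2xoff/on pair it was 1.28 (range -0.25 to 2.45) and 38 of 39 were higher (47.8% of all genes). Over all genes the pair medians were -0.07, -0.29 and -0.03. The off gap was the larger one for 28 of 39 genes, by a median of 0.51. Top2a (4.50 in off, 1.75 in 2xoff/on) and Anln (3.14 and 1.22) narrowed most, while Hmmr (-0.43 and 0.82), Pttg1 (-0.21 and 0.90) and Incenp (-0.02 and 0.76) changed sign.

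**Figure D4:**
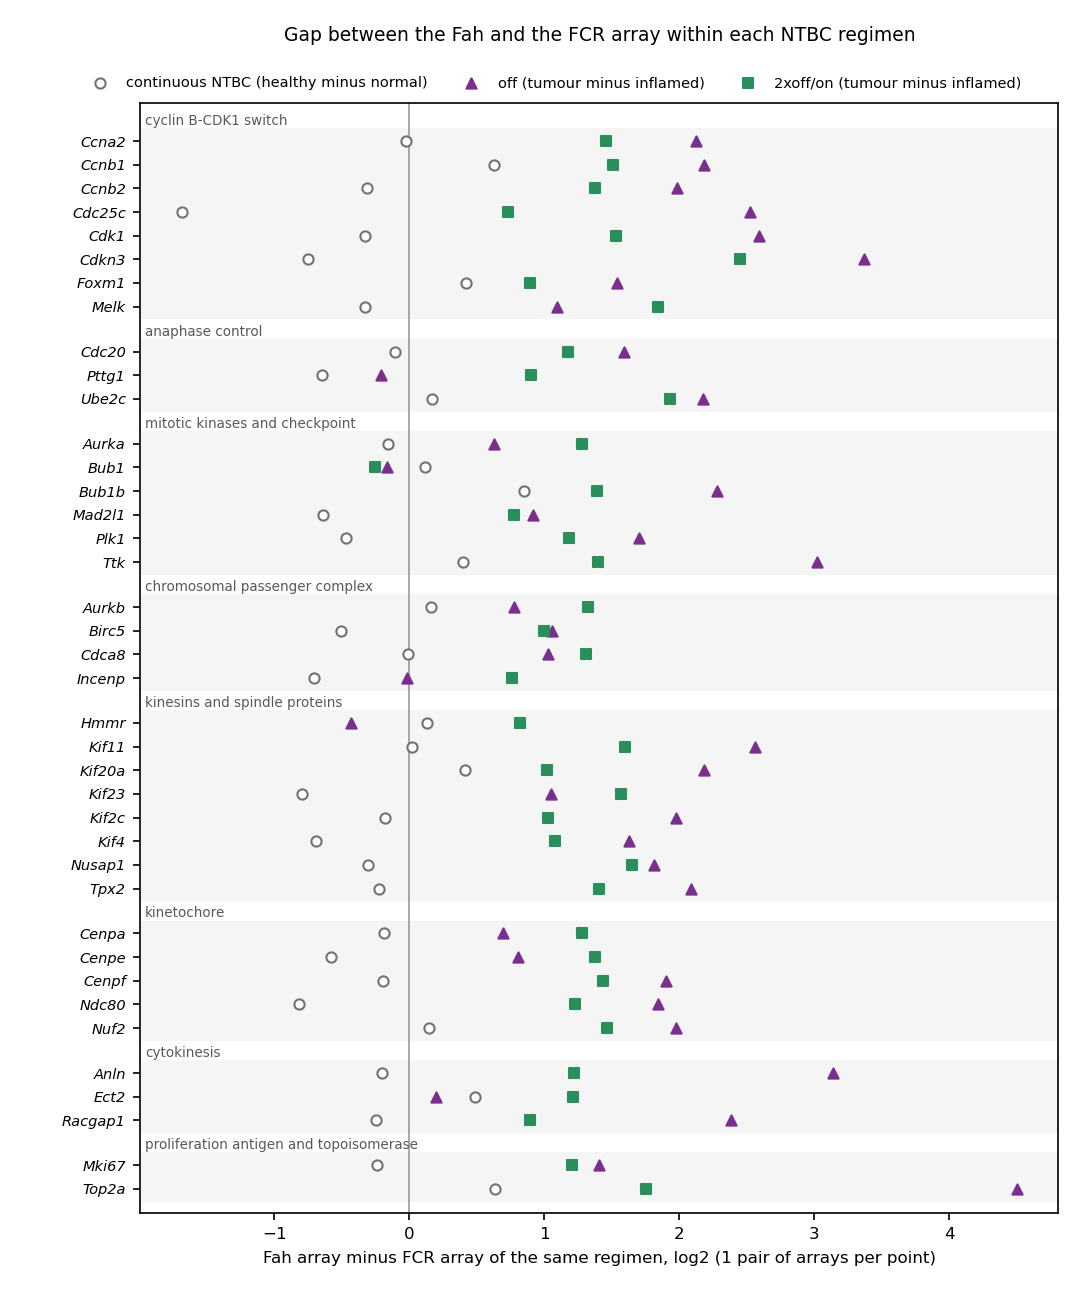
Fah array minus FCR array of the same regimen for each gene, log2, 1 pair of arrays per point; open circles are continuous NTBC, triangles off and squares 2xoff/on. Circles lie on both sides of 0 and include genes not well above background on continuous NTBC, squares lie between -0.25 and 2.45, and triangles spread wider, from -0.43 for Hmmr to 4.50 for Top2a.

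With genotype and regimen as additive terms over all 6 arrays, Fah was above FCR by a median of 0.89 over the 39 genes (all genes -0.11), or 0.56 without the FCR off array. None passed, where 0.13% of all genes passed as higher, and 18 had an unadjusted p under 0.05 (4.86% of all genes). The largest were Top2a with 2.30 ± 0.67 (adjusted p = 0.285), Cdkn3 with 1.69 ± 0.68 (adjusted p = 0.404) and Ttk with 1.61 ± 0.57 (adjusted p = 0.362), while Bub1b with 1.51 ± 0.40 (adjusted p = 0.262) had the smallest adjusted p. In the same model the regimen off was above continuous NTBC for 35 of the 39 genes at an adjusted p under 0.05, where 11.7% of all genes rose, by a median of 3.36 (10.3-fold). The 4 that did not pass were Bub1 (-0.54 ± 0.36 (adjusted p = 0.353)), Cdc25c (1.93 ± 0.90 (adjusted p = 0.187)), Top2a (2.80 ± 0.82 (adjusted p = 0.0511)) and Cenpa (1.50 ± 0.44 (adjusted p = 0.0525)). The regimen 2xoff/on was above continuous NTBC for 38 of 39, where 12.3% of all genes rose, by a median of 4.09 (17.0-fold), with Bub1 (0.49 ± 0.36 (adjusted p = 0.373)) as the exception. Both comparisons share the continuous NTBC arrays. The off arrays lay on slide 1 with them. Both 2xoff/on arrays lay on slide 2, so regimen and slide cannot be told apart in the 2xoff/on differences from continuous NTBC. Hmmr had the largest off difference, 5.23 ± 0.42 (adjusted p = 6.21e-04), and Ube2c the largest 2xoff/on difference, 5.41 ± 0.52 (adjusted p = 0.00114). Without the FCR off array none of the 39 passed in off, in a fit in which 0 of all genes passed, and without the off tumour 15 did.

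From off to 2xoff/on, 32 of 39 genes were higher in Fah (53.5% of all genes) by a median of 0.46, and 30 of 39 in FCR (44.7% of all genes) by a median of 0.74. In FCR the differences ran from -0.75 for Melk to 3.32 for Top2a, and Kif11 (2.44), Cdc25c (2.32), Cdkn3 (2.12), Ttk (2.10) and Anln (2.03) were next to Top2a. Aurka, Ect2, Incenp and Hmmr were lower in 2xoff/on FCR liver, with differences of -0.69, -0.67, -0.48 and -0.45. In Fah the range was narrower, from -0.42 for Kif4 to 1.61 for Ube2c. Off and 2xoff/on arrays lay on different slides, so regimen and slide cannot be told apart in these values.

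The comparison of the series' design text, both tumours against FCR_100% and FCR_2xoff/on, gave a median of 2.72 over the 39 genes (all genes -0.15), with 38 of 39 higher in the tumours (40.7% of all genes). By limma 0 passed, and 0% of all 15175 genes tested in those 4 arrays; 16 of 39 had an unadjusted p under 0.05 against 7.72% of all genes. Its control group holds a liver on continuous NTBC beside an inflamed one, and these 2 arrays differed by a median of 3.27 over the 39 genes. Without FCR_2xoff/on 38 of 39 passed with a median of 4.46, in a fit in which 1486 of all genes passed as higher, and without FCR_100% none passed, with a median of 1.08. Ccnb1 had the largest difference with 3.85 ± 1.53 (adjusted p = 0.431), followed by Cdkn3 with 3.74 ± 1.25 (adjusted p = 0.372), and Cdca8 had the smallest adjusted p with 2.38 ± 0.70 (adjusted p = 0.347).

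Other cell cycle genes were followed from 4 further lists, whose counts are to be read against the shares of all genes that rose or fell (3.93% and 1.13% in Fah, 1.55% and 0.202% in FCR). Of 58 further mitotic genes tested, 35 rose and none fell in the tumours (median 3.61), and 6 rose and none fell in inflamed FCR liver (median 2.24). Psrc1, a spindle microtubule protein, was at 1.18 and 2.27 in the tumours and 2.19 and 1.72 in the inflamed livers, against -3.89 in healthy Fah and -4.10 in normal FCR liver. It rose by 5.61 ± 0.70 (adjusted p = 0.00565) in Fah and 6.05 ± 0.70 (adjusted p = 0.00664) in FCR. The kinase Pbk rose by 5.68 ± 0.65 (adjusted p = 0.00412) and 3.96 ± 0.65 (adjusted p = 0.0227), and Ncapg, a condensin subunit, by 5.29 ± 0.67 (adjusted p = 0.00585) and 3.66 ± 0.67 (adjusted p = 0.0341). Ckap2, Sgo1, which protects cohesion at centromeres, and Gtse1 were the other 3 that rose in both. A further 29 rose in Fah and did not pass in FCR. Of these, 15 were measured in healthy liver too, with differences from 2.80 for Spc25 to 4.68 for Cenph, and 14 were dim there, with rises of at least 4.39-fold to at least 31.7-fold. They were Ncaph, Spc25, Dsn1, Kif15, Kif18b, Kif22, Kif20b, Cep55, Aspm, Ckap2l, Ncapg2, Sgo2a, Cenpm, Cenph, Cenpi, Dlgap5, Tacc3, Cdca2, Cdca3, Cdca5, Spag5, Depdc1a, Oip5, Ska1, Ska3, Mastl, Cdc25b, Pimreg and Stmn1. Without the FCR off array 21 of the 58 rose in FCR, with a median of 2.45, without FCR 2xoff/on 20 did, with a median of 1.71, and without either tumour 11 did. Without the 2xoff/on tumour 23 rose in Fah, and without the inflamed arrays in turn 46 and 47. In the off regimen against continuous NTBC, where 11.7% of all genes rose and 5.31% fell, 39 of the 58 rose, and in 2xoff/on, where 12.3% rose and 7.37% fell, 46 did. Of the replication list 6 of 21 rose and 1 fell in off and 10 rose and 1 fell in 2xoff/on, of G1 and S phase control 5 of 24 rose and 1 fell and 9 rose and 2 fell, and of the cell cycle brakes 3 and 5 of 12 rose. Against the inflamed livers none of the 58 passed (median 1.27, 19 at an unadjusted p under 0.05); without the FCR 2xoff/on array 11 were higher and 1 lower. The widest gaps there were those of Espl1, or separase, with 2.63 ± 0.90 (adjusted p = 0.376), and Ncaph, another condensin subunit, with 2.32 ± 0.68 (adjusted p = 0.279). At the other end Zwint, a kinetochore protein, had a tumour minus inflamed difference of -1.64 ± 0.49 (adjusted p = 0.304) and Cks2, a small partner of CDK1, of -0.68 ± 0.50 (adjusted p = 0.769). Zwint read 1.37 in healthy Fah liver, 2.22 and 2.53 in the tumours, 1.43 in normal FCR liver and 4.39 and 3.63 in the inflamed livers, both inflamed livers lying above both tumours.

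Of 21 DNA replication genes tested, 2 rose and 1 fell in the tumours (median 1.64), and none rose and 1 fell in inflamed FCR liver (median 0.79, or 0.84 with the same counts without the FCR off array). Without either tumour 0 rose in Fah, and without either inflamed array 10 did. Mcm5 and Mcm6, subunits of the replicative helicase, rose in the tumours by 2.88 ± 0.64 (adjusted p = 0.0372) and 2.64 ± 0.58 (adjusted p = 0.0356). The probe assigned to Mcm10, a replication initiation factor, read 1.54 and 1.56 in the tumours and 1.90 and 2.20 in the inflamed livers, against 5.57 in healthy Fah and 5.39 in normal FCR liver. It fell in both genotypes, with differences of -4.03 ± 0.56 (adjusted p = 0.00817) in Fah and -3.34 ± 0.56 (adjusted p = 0.0248) in FCR, and is the only probe of that gene here. Against inflamed liver Mcm3 was the highest of the list, with 1.70 ± 0.68 (adjusted p = 0.492), and Mcm10 (-0.50 ± 0.45 (adjusted p = 0.817)) and Pcna, the polymerase clamp (-0.44 ± 0.47 (adjusted p = 0.849)), the lowest; none of the 21 passed (median 0.67).

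Of 24 genes of G1 and S phase control, 4 rose in the tumours (median 1.04) and 1 in inflamed FCR liver (median 0.56); none fell. Without the FCR off array 9 rose in Fah and 1 in FCR (FCR median 0.80), and without the FCR 2xoff/on array 9 and 3; without the 2xoff/on tumour 1 rose in Fah. Cdc6, which loads the helicase onto origins, read -6.73 in healthy Fah liver, -1.87 and -1.76 in the tumours, -7.06 in normal FCR liver and -3.32 and -3.00 in the inflamed livers. It was not well above background on continuous NTBC and rose at least 9.89-fold in Fah (adjusted p = 0.0118) and at least 5.1-fold in FCR (adjusted p = 0.045). Ccne1, cyclin E1, rose by 3.14 ± 0.61 (adjusted p = 0.0244) in Fah, Rbl1, the retinoblastoma-like protein p107, by 2.84 ± 0.68 (adjusted p = 0.0491), and E2f7, a repressor of the E2F family, at least 8.72-fold (adjusted p = 0.0203). Against inflamed liver, Cdc6 (1.35 ± 0.63 (adjusted p = 0.583)) and Ccnd2, cyclin D2 (1.32 ± 0.58 (adjusted p = 0.541)), were the highest of the list, and Lin9 (-0.61 ± 0.61 (adjusted p = 0.838)) and Lin54 (-0.51 ± 0.54 (adjusted p = 0.848)), subunits of the DREAM and B-MYB complexes, the lowest. None of the 24 passed (median 0.37).

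Of 12 brakes of the cycle tested, 1 rose in the tumours (median 1.36) and 2 in inflamed FCR liver (median 0.51), and none fell. Without either inflamed array 3 rose in each genotype (FCR median 0.35 without the off array), and without the off tumour 0 rose in Fah. Cdkn2b, the CDK4 and CDK6 inhibitor p15, read -3.57 in healthy Fah liver, 0.25 and -0.19 in the tumours, -3.46 in normal FCR liver and 1.82 and 0.89 in the inflamed livers, both inflamed livers being above both tumours. It rose by 3.60 ± 0.69 (adjusted p = 0.0233) in Fah and 4.82 ± 0.69 (adjusted p = 0.0142) in FCR. Cdkn1a, the CDK inhibitor p21, was at 1.19 and 2.85 in the tumours and 2.56 and 3.90 in the inflamed livers, against 0.70 in healthy Fah and -1.33 in normal FCR liver. It rose in FCR by 4.56 ± 0.84 (adjusted p = 0.0356), while the Fah difference was 1.32 ± 0.84 (adjusted p = 0.495); the difference between the 2 responses was -3.24 ± 1.19 (adjusted p = 1) and did not pass. Against the inflamed livers none of the 12 passed (median 0.21). The highest were Cdkn1b (1.03 ± 0.49 (adjusted p = 0.597)) and Cdkn1c (0.99 ± 0.56 (adjusted p = 0.68)), the inhibitors p27 and p57, and the lowest Cdkn2b (-1.33 ± 0.56 (adjusted p = 0.521)) and Gadd45a, a DNA damage response gene (-1.33 ± 0.56 (adjusted p = 0.521)).

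**Figure D5:**
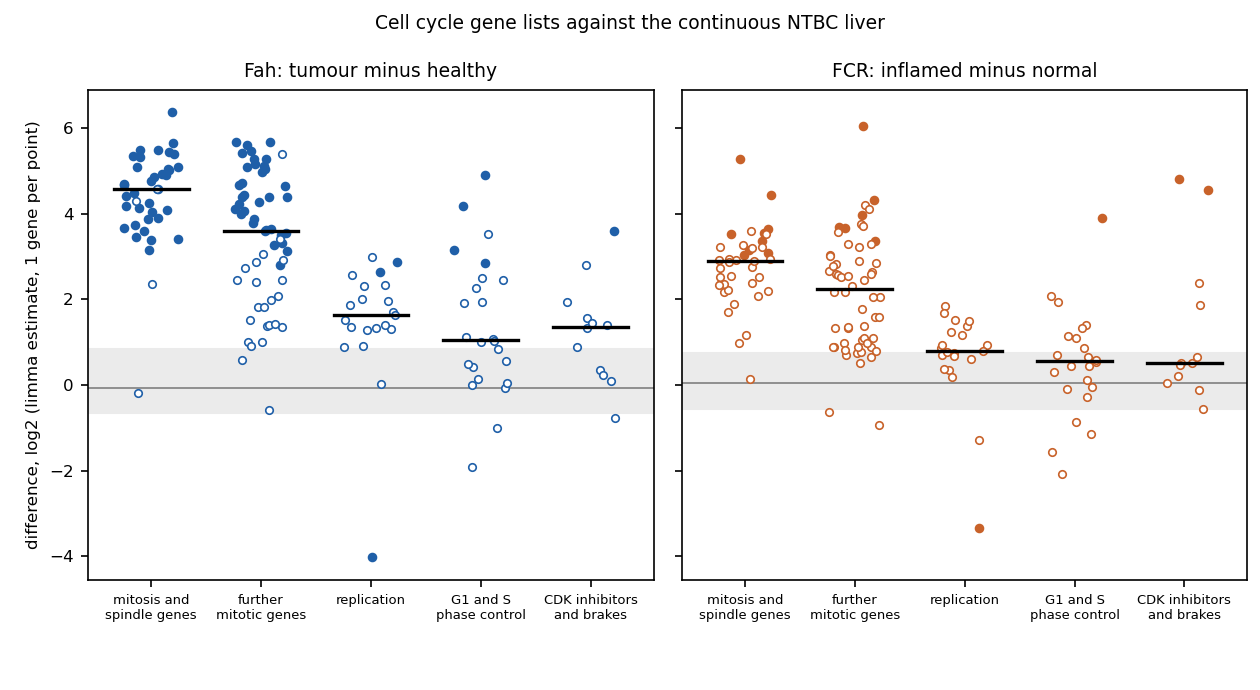
Difference from the continuous NTBC liver for the 39 genes and the 4 other cell cycle lists, log2, 1 gene per point, in Fah (left) and FCR (right); filled points have an adjusted p under 0.05, black bars are list medians, and the grey line and band are the median and the quartiles of all genes tested. List medians in Fah fall from 4.57 and 3.61 for the mitotic lists to 1.64, 1.04 and 1.36 for replication, G1 and S phase control and brakes.

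Markers of other cells differed between the same groups, and their part in the differences of the mitotic genes was not tested. Summed signals are given relative to each array's 75th percentile, over the measured markers of each list. B and plasma cell markers summed to 2.51 to 4.59 in the tumours and 0.346 to 0.370 in the inflamed FCR livers, against 1.18 in healthy and 0.326 in normal liver, with 7 of 8 genes well above background in both tumours and 5 to 6 in the inflamed livers. Mast cell markers (4 genes) summed to 3.71 to 22.4 in the tumours and 0.166 to 0.198 in the inflamed livers, against 0.166 in healthy and 0.139 in normal liver, and 2 of them rose in Fah. T cell marker sums (8 genes) differed less, 1.24 to 1.48 against 0.685 to 0.848, with 1.20 in healthy and 0.859 in normal liver. All 8 genes were well above background in both tumours and 5 in each inflamed liver, with 6 in healthy and 5 in normal liver. The median tumour minus inflamed difference of the 8 genes was 1.64 log2, and 0 passed. Cd8a was well above background in the tumours but on none of the other 4 arrays. Macrophage and monocyte markers (8 of 8 well above background on each of these arrays) summed to 50.5 to 92.8 in the tumours, 240 in the off inflamed liver and 21.4 in the 2xoff/on inflamed liver, against 16.1 in healthy and 22.5 in normal liver, and 2 of them rose in Fah. Neutrophil markers (6 genes) summed to 11.9 to 29.3 in the tumours and 21.9 to 38.0 in the inflamed livers, against 3.49 in healthy and 1.93 in normal liver, and 2 of them rose in Fah and 3 in FCR. NK and cytotoxic markers (7 genes) were at 0.719 to 1.28 and 0.589 to 0.927, against 0.239 and 0.0726, and 1 rose in FCR. All 7 were well above background in both tumours, against 2 in the off and 4 in the 2xoff/on inflamed liver. In healthy liver 2 were, and in normal liver 1. The median tumour minus inflamed difference of these 7 genes was 2.34 log2, and 0 passed. Endothelial markers were at 20.7 to 41.1 and 26.2 to 42.2, against 33.4 and 24.2. Erythroid markers (7 genes) summed to 11.3 to 20.6 in the tumours, 9.06 in the off inflamed liver and 44.4 in the 2xoff/on inflamed liver. They summed to 32.3 in healthy and 21.4 in normal liver, and 1 of them fell in Fah. On none of the 6 arrays was the B cell kinase Blk well above background.

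Biliary and progenitor markers (7 genes) summed to 56.8 to 151 in the tumours and 16.0 to 56.4 in the inflamed livers, against 10.7 in healthy and 9.65 in normal liver, and 3 of them rose in Fah. Stellate cell and myofibroblast markers (8 genes) were at 54.8 to 93.8, 26.1 to 48.5, 16.2 and 20.0 in the same order. Hepatocyte markers ran the other way, with 1959 in healthy and 1722 in normal liver, 796 to 1126 in the inflamed livers and 630 to 779 in the tumours.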

How the data were processed

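Liver RNA was hybridised to 1-colour Agilent arrays, 1 per sample. Per the file headers, the deposited intensity values (processed signal) were background-subtracted, detrended and floored above 0 by Agilent's Feature Extraction. By the same headers they were not normalized between arrays. The submitters' processing notes name version 10.5 of Feature Extraction, while the file headers give 10.7.3.1 on every array. The series table, as the authors deposited it, holds log2 values close to the log2 median signal (r 0.996 to 0.999 over probes on each array), with column medians of 6.45 to 6.48; the sources used here do not say how they were centred.

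The log2 processed signal minus the 75th percentile of its array was used, with spots of a probe averaged. Of 41145 probes, 26912 were named by matching their accessions to RefSeq GRCm38.p6, and 29 lacking on an array were left out. A gene was taken from its probe with the highest mean, and tested if well above background on at least 2 arrays. All 8 comparisons were fitted with limma 3.58.1 in R 4.3.3 (intensity trend, two-sided, Benjamini-Hochberg over all genes tested, 2 residual degrees of freedom), after a check on simulated data. No spot was saturated. A bound sets the bright group's mean against the dim probe or the lowest signal well above background, whichever is higher. Array number, slide and the off FCR array limit the precision.

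The 40 genes, the other lists and the markers were chosen with earlier results of these data known. All 40 genes are accounted for; from other lists those that pass against the continuous NTBC liver of their genotype and the 2 highest and 2 lowest against inflamed liver are named; their calls in the 2 regimen comparisons are given as counts. Alternatives were array median or quantile scaling, normexp, other filters, mean of probes or every probe, no trend, slide as a block, a common floor, the authors' values and leaving out each array. Motifs were matched as letters on both strands of 300-base RefSeq windows.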

Additional observations from a re-analysis of the deposited data

Results flagged for a closer look

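Each tumour or inflamed array was set against the continuous NTBC liver of its genotype. Among the genes named in this report, 2 lay on opposite sides of it in the genotypes, both from the other cell cycle lists. Unnamed genes of those lists are not counted here, and no share over all genes was computed. For Cdkn1b, the CDK inhibitor p27, the Fah arrays lay 0.01 and 0.17 above healthy liver and the FCR arrays -0.44 and -0.69 from normal liver; the withdrawal difference was 0.66 ± 0.85 (adjusted p = 1) by limma. For Wee1, the kinase that restrains CDK1, the Fah arrays differed by 2.42 and 1.45 and the FCR arrays by -1.48 and -0.79, a withdrawal difference of 3.07 ± 1.23 (adjusted p = 1); it was not well above background in healthy Fah liver. Neither difference passed, and Wee1 is named after its values were seen. No group held enough arrays for a search for outlying arrays.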

How the results depend on the processing

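Of single-gene results under all alternatives, 8806 stayed on the same side of the threshold, 758 no longer passed and 297 newly passed. The 8806 include results that changed sign where neither setting passed. A change of sign with a pass in at least 1 setting was seen for 2 results, both with the mean of probes. These were Bub1 in off against continuous NTBC (2.05) and Cdkn1b in 2xoff/on against continuous NTBC (1.90). The causes were not tested. Normexp background correction gave lower medians: 3.23 for Fah tumours against healthy liver, 1.82 for inflamed against normal FCR liver, 1.18 for the difference of these, 2.31 for off, 2.72 for 2xoff/on and 2.11 for the design text's comparison; 2 genes then rose against inflamed livers and 4 between genotypes over regimens. With the authors' values the Fah count was 21 (median 3.63), the FCR count 0 (median 2.21), and the off and 2xoff/on medians 2.82 and 3.12. A common floor, chosen after seeing the data, left 0 genes rising in Fah, 0 in FCR, 0 in off and 5 in 2xoff/on; under it 0 of all genes passed in every comparison but 2xoff/on, where 272 rose. The FCR count of 9 became 2 with array median scaling, 1 with quantile scaling, 3 with no filter, 3 with a strict filter, 4 with no trend and 1 with every probe on its own. Array median scaling also gave a 2xoff/on median of 3.57 and moved the median of all genes to -0.44 in Fah against healthy liver. With slide as a block 16 genes rose against inflamed livers. The Fah count of 35 became 34 with array median scaling, 29 with quantile scaling and 28 with normexp. It was 31 with no filter, 27 with a strict filter and 30 with the mean of probes. The Fah median was 4.82 without the off tumour and 4.38 without the 2xoff/on tumour. Leaving out 1 array at a time gave 0 to 12 genes rising against inflamed livers (medians 1.08 to 1.94), 10 to 25 in FCR (medians 2.32 to 3.27), 0 to 1 between genotypes, 0 to 37 in off (medians 2.65 to 3.96) and 0 to 38 in the design text's comparison (medians 1.08 to 4.46). No paired analysis was possible by replicate number, because the labels give none; arrays were paired by regimen and slide instead, and genotype over regimens without the regimen block gave 0 genes and a median of 0.89. Signal over background limits the genes named above as bounds.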

Other observations

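Against healthy Fah liver, 56 of the 58 probes of the 39 genes were bright enough to be tested on their own, and 30 of them, from 26 genes, rose. In inflamed FCR liver 1 probe did. Among the 32 measured genes with a promoter window, 23 had CHR letters, 23 CCAAT letters and 20 both. Of the 9 genes that rose in both genotypes, 5 had CHR and 7 CCAAT letters. Of the other 23, 18 had CHR and 16 CCAAT letters. Genes with neither motif had median differences of 4.19 in Fah and 2.64 in FCR, and genes with both 4.78 and 2.92; these are descriptions with no test.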
